A study of Mus musculus with 26 samples.

Results

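IGHV1-26 is 1 of 188 heavy-chain V genes named in these antibody repertoires, and 96 others belong to the same large IGHV1 (J558) family. It was chosen because its mean share of clonotypes over the 12 tissue samples, 9.04%, was the highest of any V gene, so its rank and level are a description and were not tested. A clonotype here is a distinct combination of V gene, J gene and junction nucleotides within a sample. IGHV1-26 accounted for 115955 of 1674869 clonotypes over all samples. The skin, spleen and lymph node samples came from mice labelled WT and treated by "S. epidermidies association", association with a bacterium of normal skin, with 4 biological replicates per tissue and 2 technical libraries per replicate. All tissue samples carried the treatment, so the comparisons were between tissues and between isotypes, in a series on germinal centres that form in skin. The tissue was read from the sample titles, because the tissue field gives ear skin for every tissue sample. The labels do not say whether the same number marks the same animal in different tissues, nor whether samples were pooled. A positive control had 1 replicate with 2 technical libraries; it is labelled WT with B cells as its source and with no tissue or treatment, and its nature is not stated.

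A V gene segment encodes most of the heavy-chain variable domain and is joined to a D and a J segment in the developing B cell, so that the junction, which encodes the third complementarity-determining region (CDR3), differs from clone to clone. Naive B cells carry their receptor as IgM and IgD. After activation the constant region can be switched to IgG, IgA or IgE, and somatic hypermutation can place mismatches in the V segment, mostly in germinal centres. Of the loops that the V segment itself encodes, CDR2 lies closer to the junction than CDR1, and framework 3 lies between CDR2 and the junction.

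Mouse Ighv1-26 (gene ID 629884) is a V segment of the heavy-chain locus and is placed by RefSeq (GRCm38.p6, the patch release of the mm10 assembly) on chromosome 12, from 114788372 to 114788665, a segment of 294 nt. The deposited sequences began at CDR2 and ran through framework 3 into the junction, so the V window covers positions 151 to 294 of the segment, counted from 1 at its first base, and codons are counted from the same base. CDR2, as IMGT delimits it, took codons 51 to 58 of the window. The commonest sequence of that window among unmutated IGHV1-26 sequences is shown first, with the windows of the 3 IGHV1 genes closest to it, because these are the genes with which a mutated read could be confused. Capitals in the IGHV1-26 line mark bases at which any of the 3 differs, and capitals in the other lines mark the differing base.
IGHV1-26: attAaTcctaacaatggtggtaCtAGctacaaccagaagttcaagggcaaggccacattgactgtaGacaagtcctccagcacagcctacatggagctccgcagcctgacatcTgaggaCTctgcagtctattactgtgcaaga
IGHV1-18: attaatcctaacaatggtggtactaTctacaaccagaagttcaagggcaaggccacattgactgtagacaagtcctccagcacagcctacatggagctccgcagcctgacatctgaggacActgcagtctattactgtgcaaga
IGHV1-34: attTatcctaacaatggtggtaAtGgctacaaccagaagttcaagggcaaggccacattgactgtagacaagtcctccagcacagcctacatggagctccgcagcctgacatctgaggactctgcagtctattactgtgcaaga
IGHV1-22: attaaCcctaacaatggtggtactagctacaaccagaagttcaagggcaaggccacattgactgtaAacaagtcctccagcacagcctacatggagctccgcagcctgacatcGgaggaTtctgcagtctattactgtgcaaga
IGHV1-18 differed at 2 of 144 bases (G176T and T271A, the IGHV1-26 base written first), IGHV1-34 at 3 (A154T, C173A and A175G) and IGHV1-22 at 4 (T156C, G217A, T264G and C270T). Among 107 V genes with a germline window, none had the same window as IGHV1-26.

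The samples differed greatly in depth. Copies, the deposited count per sequence, summed to between 4976 and 7495 per skin replicate, 162168 and 1362176 per spleen, 93191 and 228065 per lymph node, and to 645566 in the control. Clonotypes numbered 275 to 350 per skin replicate, 25645 to 438995 per spleen, 27520 to 117561 per lymph node and 386982 in the control. Skin values for IGHV1-26 therefore rest on few clonotypes, and of these only 0, 1, 1 and 2 in replicates 1 to 4 were found in both technical libraries. Intervals and limits given for shares cover counting error only.

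IGHV1-26 was the most used V gene in 11 of the 12 tissue samples and second in the other. In skin it took 11.4% of clonotypes (40 of 350; exact 95% interval 8.29% to 15.2%), 10.0% (32 of 320; 6.94% to 13.8%), 11.8% (38 of 322; 8.49% to 15.8%) and 6.55% (18 of 275; 3.93% to 10.1%) in replicates 1 to 4. In spleen it took 9.88%, 8.15%, 8.48% and 8.12%, and in lymph node 9.0%, 8.01%, 8.46% and 8.57%. Spleen and lymph node values overlapped, and 3 of the 4 skin values lay above all of them while the fourth lay below. In skin replicate 4 IGHV1-64 was higher, at 7.27%. In the control IGHV1-26 took 2.39% (9262 of 386982; 2.35% to 2.44%) and ranked 9th, below every tissue sample.

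The next V gene by mean share over the 12 samples was IGHV1-82 at 4.07%, followed by IGHV1-55 at 3.75%, IGHV1-53 at 3.73%, IGHV9-3 at 3.54% and IGHV3-6 at 3.26%. In lymph node the highest other gene of a sample was IGHV1-18 in 3 replicates and IGHV1-82 in the fourth, and IGHV1-26 was 1.85 to 2.28 times as frequent as that gene. In spleen the corresponding ratio was 1.48 to 1.92 and in skin 0.900 to 2.22. The plot of shares by V gene shows this gap and its width in each tissue.

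**Figure D1:**
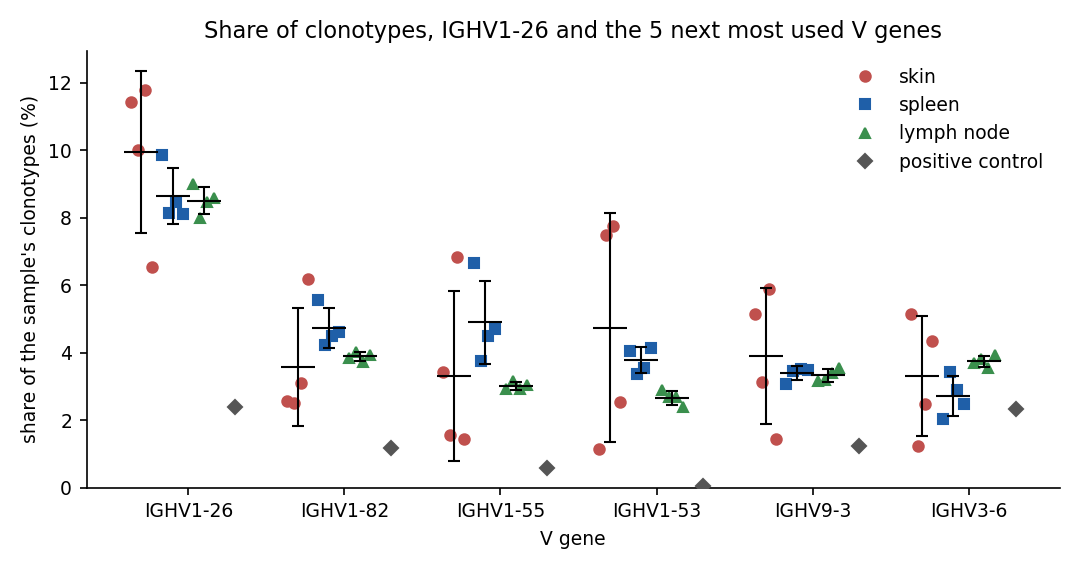
Share of each sample's clonotypes (%) for IGHV1-26 and the 5 next most used V genes, with 1 point per replicate (skin circles, spleen squares, lymph node triangles, positive control diamonds) and the mean with SD of the 4 replicates of a tissue. IGHV1-26 lies between 8.01% and 9.88% in spleen and lymph node, between 6.55% and 11.8% in skin, and at 2.39% in the control.

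The share of IGHV1-26 did not pass the test of a difference between tissues. The 4 skin samples averaged 9.94% ± 2.39, those of spleen 8.66% ± 0.83 and those of lymph node 8.51% ± 0.41 (SD, n = 4 each). On counts of clonotypes per V gene, edgeR's quasi-likelihood test gave a log2 fold change of 0.08 ± 0.17 (SE) for skin over spleen (adjusted p = 0.785), 0.14 ± 0.17 for skin over lymph node (adjusted p = 0.683) and 0.05 ± 0.16 for spleen over lymph node (adjusted p = 0.859). Of all 91 V genes tested, 7.69% were called at an adjusted p under 0.05 in the first comparison (4.4% higher, 3.3% lower), 0% in the second and 22% in the third (7.69% higher, 14.3% lower). DESeq2, run with its own scaling and without edgeR's filter for low counts (164 and 151 genes tested in the skin comparisons), called many more genes there, nearly all higher in skin (44 higher and 4 lower against spleen, 37 higher and 0 lower against lymph node). With DESeq2 the IGHV1-26 difference was 0.41 for skin over spleen (adjusted p = 0.0750) and 0.50 for skin over lymph node, which passed (adjusted p = 0.0489). With only the first technical library of each replicate the edgeR estimates for skin were below 0, at −0.86 against spleen and −0.68 against lymph node, and neither passed. Leaving out any 1 replicate gave no edgeR call for IGHV1-26.

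Among the other IGHV1 genes tested, 3 of 46 rose and 3 fell in skin against spleen, 0 of 46 in either direction in skin against lymph node, and 2 rose and 6 fell in spleen against lymph node. Their median log2 fold changes were −0.20, −0.13 and −0.09, beside −0.28, −0.19 and −0.12 over all 91 genes. IGHV1-18, the closest gene by sequence, fell in spleen against lymph node by 0.68 on the log2 scale (SE 0.21, edgeR adjusted p = 0.0359). The V genes whose log2 usage followed that of IGHV1-26 most closely over the 12 tissue samples were IGHV11-2 (Pearson r = 0.787), IGHV1-12 (0.724), IGHV9-3 (0.706), IGHV14-3 (0.634) and IGHV1-7 (0.584). The same tissue totals and depths stand behind both genes of each pair, so these coefficients are a description only. IGHV11-2 and IGHV1-12 averaged 0.520% and 0.227% of skin clonotypes, so their skin values rest on very few clonotypes.

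By copies the share of IGHV1-26 varied more. Skin replicates 1 to 4 had 10.8%, 10.3%, 9.12% and 6.67% of their copies with this gene. The spleen replicates had 17.0%, 8.16%, 8.32% and 9.75%. The lymph node replicates had 11.7%, 7.31%, 8.62% and 6.12%. Spleen replicate 1 stood above the other 3 spleen samples. The technical libraries of a skin replicate differed widely, at 5.53% and 14.1% of copies in replicate 2. The widest gap between those of a spleen or lymph node replicate was in spleen 1, at 18.1% and 16%. In these bulk samples, more copies of a transcript cannot be told apart from more cells that carry it.

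Within isotypes the IGHV1-26 shares of IgM, IgD, IgA and IgG2 clonotypes had overlapping ranges. In spleen it was 9.50%, 7.81%, 8.71% and 8.10% of IgM clonotypes in replicates 1 to 4, 9.73%, 8.71%, 7.82% and 8.31% of IgD, 12.3%, 9.15%, 6.89% and 8.54% of IgA, and 9.72%, 11.5%, 7.15% and 5.60% of IgG2. It was the leading V gene of spleen IgM, IgD and IgA in all 4 replicates and of IgG2 in 3. In lymph node it took 8.95%, 8.17%, 8.54% and 8.75% of IgM clonotypes and 8.97%, 8.35%, 7.32% and 5.43% of IgA, the latter on 20 to 39 clonotypes per sample. IgM and IgD values were the tightest, with a range of 7.81% to 9.73% over the 8 spleen and lymph node samples.

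None of 6 isotype comparisons passed for IGHV1-26 in a paired edgeR fit with the sample as block, in which the isotypes of a sample were compared with its IgM. In spleen the log2 fold change was 0.14 ± 0.13 (SE) for IgA over IgM (adjusted p = 0.404), −0.08 ± 0.14 for IgG2 (0.699) and 0.03 ± 0.13 for IgD (0.935). In lymph node it was −0.13 ± 0.24 for IgA (adjusted p = 0.743), 0.02 ± 0.22 for IgG2 (0.960) and −0.01 ± 0.21 for IgD (0.981). In the same fits 40.7% of 86 V genes were called in spleen for IgA (19.8% higher, 20.9% lower), 19.8% for IgG2 (6.98% higher, 12.8% lower) and 16.3% for IgD (4.65% higher, 11.6% lower). In lymph node 12.9% of 70 were called for IgA (8.57% higher, 4.29% lower), 24.3% for IgG2 (12.9% higher, 11.4% lower) and 5.71% for IgD (4.29% higher, 1.43% lower). Other much-used genes did pass in spleen: IgA over IgM rose for IGHV1-55 (0.86 ± 0.12, adjusted p = 1.72e-05) and IGHV1-53 (0.64 ± 0.14, adjusted p = 0.00119) and fell for IGHV9-3 (−0.65 ± 0.22, adjusted p = 0.0188). Of the other 45 IGHV1 genes tested in spleen, 13 rose and 1 fell in IgA over IgM, with a median log2 fold change of 0.46 beside −0.10 over all 86 genes.

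By copies the IgA and IgG2 shares varied far more between samples than the IgM shares. IGHV1-26 held 26.9%, 10.5%, 9.98% and 14.3% of spleen IgA copies in replicates 1 to 4, 41.4%, 11.3%, 3.75% and 5.88% of spleen IgG2 copies, and 62.1%, 5.69%, 3.58% and 0.523% of lymph node IgG2 copies. Replicate 1 was the highest in each of these sets. A single clonotype held 4733 of the 5929 IGHV1-26 IgG2 copies of spleen 1, and another held 2744 of the 3077 of lymph node 1. Tested on copies, the log2 fold change over IgM was 1.55 ± 0.55 (SE) for spleen IgA, 1.54 ± 0.59 for spleen IgG2 and 1.67 ± 1.21 for lymph node IgG2, and none passed (edgeR adjusted p of 0.0761, 0.140 and 0.394). IgM shares by copies spanned 6.38% to 8.91% for spleen, and 7.09% to 9.13% for lymph node. In skin IGHV1-26 took 10.6%, 9.77%, 8.90% and 9.66% of IgM clonotypes and was their leading V gene in all 4 replicates. Of skin IgA clonotypes it took 4.0% (2 of 50), 10.3% (10 of 97), 14.1% (12 of 85) and 4.35% (4 of 92). Its ranks there were 8, 4, 2 and 5, so it led skin IgA in no replicate. Of skin IgD clonotypes it took 21.2% (14 of 66), 12.8% (6 of 47) and 18.4% (9 of 49) in replicates 1 to 3, and led in each. Skin replicate 4 had 0 IGHV1-26 clonotypes among 47 of IgD, which allows a share of up to 6.38%.

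**Figure D2:**
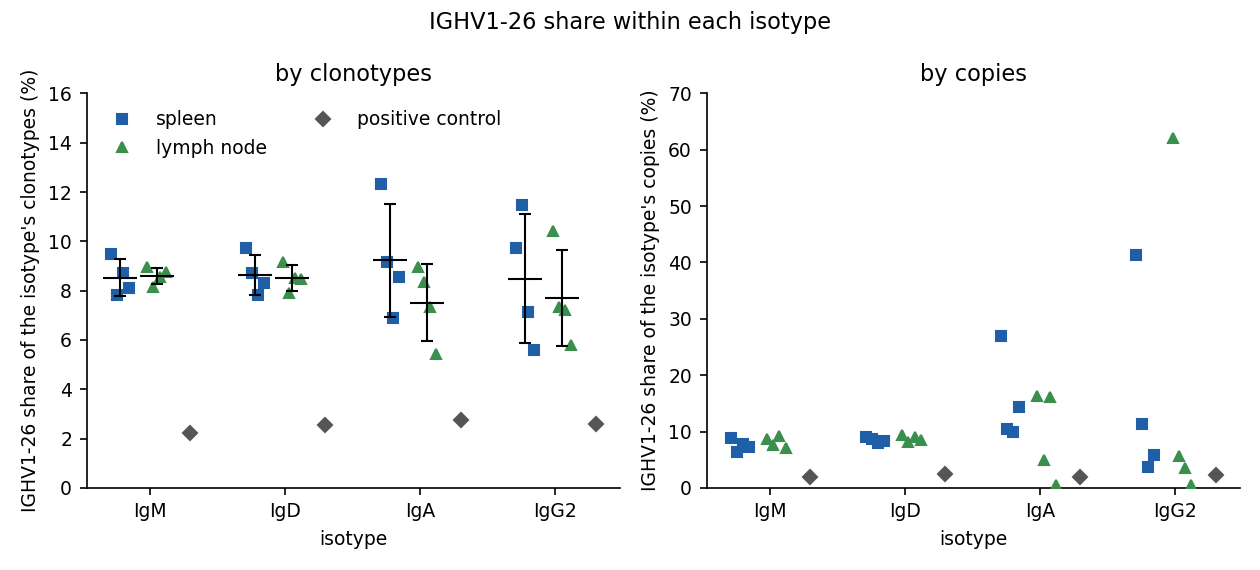
IGHV1-26 share (%) of the clonotypes (left, with mean and SD of 4 replicates) and of the copies (right, points only) of each isotype in spleen, lymph node and the single positive control. By clonotypes spleen and lymph node lie between 5.43% and 12.3% in IgM, IgD, IgA and IgG2, the isotypes shown, whereas by copies single samples reach 41.4% of spleen IgG2 and 62.1% of lymph node IgG2.

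In skin replicates 2 to 4, the 4 IGHV1-26 clonotypes found in both technical libraries were IgA. No others met that condition, so the 3 largest per replicate that had been sought came to 0, 1, 1 and 2. All 4 consisted of IgA copies alone. The largest of replicate 2 held 515 copies, 66.8% of that sample's IGHV1-26 copies, with IGHJ4 and 9 mismatches in the window, 5 of them replacements. The largest of replicate 3 held 187 copies with IGHJ4, the CDR3 ARRAAQVYAMDY and 1 silent mismatch. Replicate 4 had a clonotype of 145 copies with IGHJ2, the CDR3 ARRWSYSFDY and 11 mismatches (9 replacements), and another of 60 copies with IGHJ2, the CDR3 ALITLYFDS and 9 mismatches (6 replacements), which was also in lymph node 4. Their commonest windows to position 288, with mismatches to the germline in capitals, and their junctions show how far each had moved from the germline sequence above.
Skin 2 window: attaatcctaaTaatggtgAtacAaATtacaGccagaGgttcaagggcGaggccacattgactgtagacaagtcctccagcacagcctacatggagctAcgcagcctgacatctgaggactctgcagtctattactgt
Skin 2 junction: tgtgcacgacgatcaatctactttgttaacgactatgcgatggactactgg
Skin 3 window: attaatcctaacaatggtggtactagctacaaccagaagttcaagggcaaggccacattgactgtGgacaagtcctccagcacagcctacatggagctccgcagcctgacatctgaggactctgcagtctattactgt
Skin 3 junction: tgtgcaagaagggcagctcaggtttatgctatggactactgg
Skin 4 window, larger: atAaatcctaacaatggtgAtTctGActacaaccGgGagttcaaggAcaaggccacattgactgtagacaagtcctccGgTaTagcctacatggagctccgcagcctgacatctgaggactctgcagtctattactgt
Skin 4 junction, larger: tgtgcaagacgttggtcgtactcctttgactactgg
Skin 4 window, smaller: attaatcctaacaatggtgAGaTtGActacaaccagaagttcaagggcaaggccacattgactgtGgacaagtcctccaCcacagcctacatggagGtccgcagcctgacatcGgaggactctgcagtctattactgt
Skin 4 junction, smaller: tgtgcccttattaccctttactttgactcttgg
The 3 skin clonotypes with replacement mismatches all changed codons 57 and 59: skin 2 and the larger clonotype of skin 4 carried G57D, the smaller carried G57E, and codon 59 read S59N in skin 2 and S59D in both of skin 4.

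The largest spleen clonotypes of replicates 2, 3 and 4 were also IgA and mutated. Spleen 2 held one of 11316 copies (10.2% of its IGHV1-26 copies; 11280 of IgA) with the CDR3 ARYGYYPGY and IGHJ3, spleen 3 one of 2157 copies (5.67%) with AIYQAYFDV and IGHJ1, and spleen 4 one of 8853 copies (13.1%) with ARLGYAGGY and IGHJ2. Their commonest windows had 9, 6 and 7 mismatches, and codon 59 was changed in each (S59D, S59N and S59T).
Spleen 2 window: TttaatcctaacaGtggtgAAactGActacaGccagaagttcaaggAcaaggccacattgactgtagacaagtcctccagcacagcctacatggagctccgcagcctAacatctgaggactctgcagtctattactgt
Spleen 3 window: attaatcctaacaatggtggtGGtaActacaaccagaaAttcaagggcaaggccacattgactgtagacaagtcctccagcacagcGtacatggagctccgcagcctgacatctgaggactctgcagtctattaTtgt
Spleen 4 window: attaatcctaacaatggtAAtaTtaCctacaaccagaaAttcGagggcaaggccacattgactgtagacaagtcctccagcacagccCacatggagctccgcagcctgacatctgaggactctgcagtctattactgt
The largest clonotype of spleen 1, by contrast, held 7897 copies (28.6% of its IGHV1-26 copies; 4733 of IgG2 and the rest of IgA) with 0 mismatches, IGHJ3 and the CDR3 ARGASPGTFAY, and it was also found in skin 3 and spleen 4. Lymph node 1 likewise had an unmutated leading clonotype, of 2744 IgG2 copies (25.3%) with the CDR3 ARSSDSSGPWFAY and IGHJ3. The leading clonotype was IgG2 with 3 mismatches in lymph node 2 (944 copies), mainly IgM with 1 in lymph node 3 (450 copies) and IgM with 0 in lymph node 4 (477 copies).

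Sharing of IgA clonotypes followed the replicate number. Of 28 IGHV1-26 IgA clonotypes in skin, 7 (25%) were among the IgA clonotypes of the same-numbered spleen sample, at least 1 in each replicate, and 0 were among those of the 12 other skin and spleen pairings. The 7 held 7.02%, 93.5%, 78.7% and 99% of skin IGHV1-26 IgA copies in replicates 1 to 4. Of 105 lymph node IgA clonotypes, 48 (45.7%) were in the same-numbered spleen, 3, 23, 7 and 15 by number, whereas the 12 other pairings together shared 10. The 48 were 0.830% of the 5786 spleen IgA clonotypes. Over all isotypes 8 of 128 skin clonotypes were in the same-numbered spleen and 6 in other pairings, and for spleen and lymph node the counts were 1159 and 1027. In pair 1 of spleen and lymph node the same-numbered count, 11, was no higher than the 11 to 13 shared with other lymph node numbers.

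Few CDR3 amino acid sequences recurred widely with IGHV1-26. With their J gene, 94.7% occurred in 1 tissue sample only, and 1 occurred in 8 samples, the maximum: ARDYGSSYWYFDV with IGHJ1, in all 4 spleen and all 4 lymph node samples, encoded by 5 different junctions and 78 copies in total. The next 4 by number of samples and copies, each in 7 samples, were ARGDYYAMDY with IGHJ4, ARGYFDV with IGHJ1, ARDYFDY with IGHJ2 and ARGYAMDY with IGHJ4. These 4 have 7 to 10 residues and were encoded by 5 to 8 junctions each. None of the 5 was found in skin with this V gene.

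J gene pairing differed in places between spleen and lymph node but missed the threshold after adjustment. IGHJ3 paired with 18.9%, 12.1%, 13.3% and 14.5% of IGHV1-26 clonotypes in spleen replicates 1 to 4 and with 8.52%, 8.79%, 7.67% and 8.41% in lymph node. IGHJ4 paired with 29.1%, 34.1%, 31.9% and 31.4% in spleen and 39.5%, 36.4%, 39.6% and 38.9% in lymph node. Neither pair of groups overlapped; the differences of 6.36 and −6.96 percentage points had an exact two-sided permutation p of 0.0286, the smallest that 4 against 4 samples can give, and an adjusted p of 0.0571 over the 4 J genes. With clonotypes defined by CDR3 amino acids, and also without spleen replicate 2, the IGHJ1, IGHJ3 and IGHJ4 differences all passed (exact adjusted p = 0.0381). The other IGHV1 genes showed the same gaps, with IGHJ3 at 14.4% ± 2.63 in spleen against 8.21% ± 0.43 in lymph node, and IGHJ4 at 30.5% ± 2.20 against 37.6% ± 1.60 (SD, n = 4). IGHJ1 and IGHJ2 shares of IGHV1-26 differed by 1.08 and −0.47 points (adjusted p of 0.0762 and 0.83 in the same exact tests). In skin IGHJ4 paired with 65.0%, 59.4%, 50.0% and 33.3% of clonotypes and IGHJ2 with 17.5%, 9.38%, 26.3% and 55.6%, a wide spread on 18 to 40 clonotypes.

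**Figure D3:**
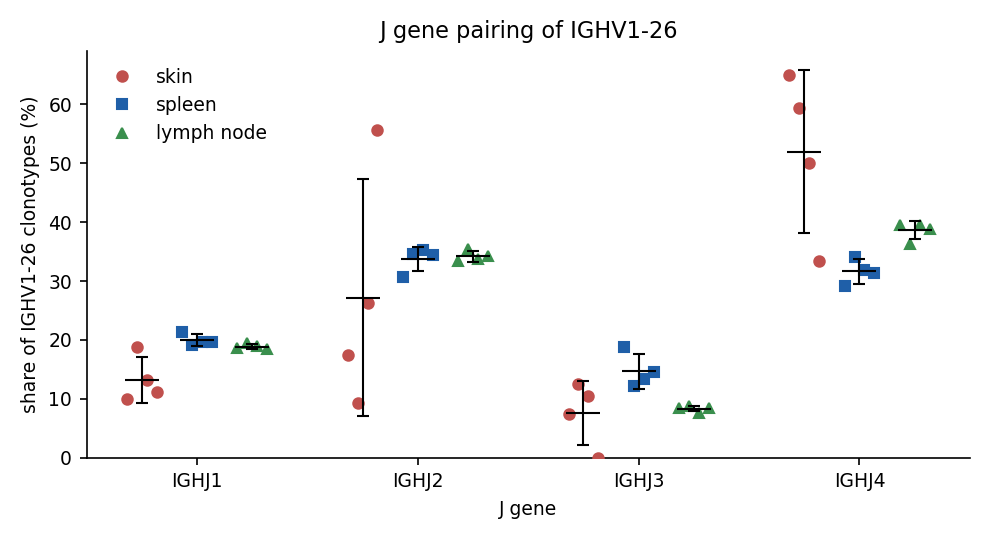
Share (%) of IGHV1-26 clonotypes that use each J gene, with 1 point per replicate and the mean with SD of 4 replicates. The 4 spleen values of IGHJ3 (12.1% to 18.9%) lie above the 4 of lymph node (7.67% to 8.79%), and those of IGHJ4 below.

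CDR3 loops of IGHV1-26 averaged 12.5, 14.3, 11.9 and 11.6 residues in skin replicates 1 to 4. The spleen mean was 11.9 ± 0.13 residues, and the lymph node mean 12.2 ± 0.074 (SD, n = 4). The spleen mean was 0.27 residues below that of lymph node with no overlap of samples, which missed the threshold after adjustment (exact permutation p = 0.0286, adjusted p = 0.0857 over 3 comparisons). Set against the other IGHV1 genes of the same sample, IGHV1-26 had slightly shorter loops in all 8 spleen and lymph node samples, by 0.126 residues on average (exact sign-flip permutation p = 0.00781, adjusted p = 0.0273 over 7 measures). Its IGHJ2 share was lower in 8 of 8 samples, by 1.5 percentage points (exact adjusted p = 0.0273), and its IGHJ4 share higher in 7 of 8, by 1.06 points (exact adjusted p = 0.0365). Against all other V genes in place of IGHV1 genes, the J differences had the opposite sign, 0.97 points for IGHJ2 and −0.63 for IGHJ4, and neither passed. With 1 sample left out the means ranged over −0.133 to −0.119 residues, −1.60 to −1.28 points and 0.940 to 1.22 points; 7 samples cannot give a sign-flip p below 0.0156, and the 3 calls passed only without lymph node replicate 1. Same-numbered spleen and lymph node samples may share an animal, which this test does not take into account.

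V mutation was higher in IgA than in IgM, as mismatches per aligned V nucleotide averaged over clonotypes. In spleen IGHV1-26 IgA clonotypes carried 3.42%, 3.41%, 3.72% and 3.86% mismatches in replicates 1 to 4, and IgM clonotypes 0.812%, 1.07%, 0.529% and 0.618%. In lymph node IgA carried 1.79%, 2.47%, 3.76% and 3.34% and IgM 0.666%, 0.553%, 0.534% and 0.423%. In skin IgA carried 3.76%, 5.21%, 2.42% and 6.47%, on 2 to 12 clonotypes per sample, and IgM 0.522%, 1.24%, 0.429% and 0.860% on 14 to 25. The IgM and IgA values of a sample did not overlap in any of the 12 tissue samples, each IgA value being higher.

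Between tissues, IgM and IgA mutation of IGHV1-26 gave no difference past the threshold. The IgM difference was 0.00387 percentage points for skin against spleen, 0.217 for skin against lymph node and 0.214 for spleen against lymph node (exact permutation tests, adjusted p of 1, 0.557 and 0.557). With copies as weights the skin values were lower than those of both other tissues and passed, by −0.474 points against spleen and −0.237 against lymph node (exact adjusted p = 0.0429 each). The IgA difference of spleen against lymph node was 0.762 points (exact p = 0.143), and it passed without lymph node replicate 3 (1.07 points, exact p = 0.0286). Over all isotypes together, skin averaged 1.59% ± 0.80, spleen 1.08% ± 0.36 and lymph node 0.591% ± 0.096 (SD, n = 4). All skin and all spleen samples lay above all lymph node samples (differences of 0.997 and 0.493 points, exact permutation p = 0.0286, adjusted p = 0.0429 each), and skin and spleen overlapped (0.504 points, adjusted p = 0.343). Of the IGHV1-26 copies, 47.3% ± 26.4 were IgA in skin, compared with 43.4% ± 8.05 for spleen and 1.55% ± 1.31 for lymph node. By clonotypes, the unit of these mutation means, IgA was carried by 28 of 128 in skin, 5786 of 82008 in spleen and 105 of 24557 in lymph node. The part of this isotype difference in the result was not tested. Both calls were lost without any 1 of the 4 lymph node replicates, where the differences were 0.954 to 1.03 points for skin and 0.450 to 0.526 for spleen. They were also lost with copies as weights (1.94 and 1.5 points, exact adjusted p of 0.557 and 0.0857), with clonotypes of 2 or more copies (0.637 and 0.700, adjusted p of 0.171 and 0.0857) and with CDR3 amino acids as the definition (1.12 and 0.431, adjusted p = 0.0857 each). Same-numbered samples may share an animal, which these tests do not take into account. With the number as a block both calls were lost, as 4 pairs cannot give an exact p below 0.125.

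Mutation of IGHV1-26 did not differ past the threshold from that of the other IGHV1 genes of the same samples. Over the 8 spleen and lymph node samples the mean difference was −0.021 percentage points in IgM (higher in 3 of 8, exact sign-flip adjusted p = 0.672) and 0.135 points in IgA (higher in 5 of 8, exact adjusted p = 0.672). In spleen IgA the means were 3.6% ± 0.22 for IGHV1-26 and 3.44% ± 0.17 for the other IGHV1 genes. Against all other V genes, IgM mutation of IGHV1-26 was 0.119 points higher and passed (exact adjusted p = 0.0365).

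**Figure D4:**
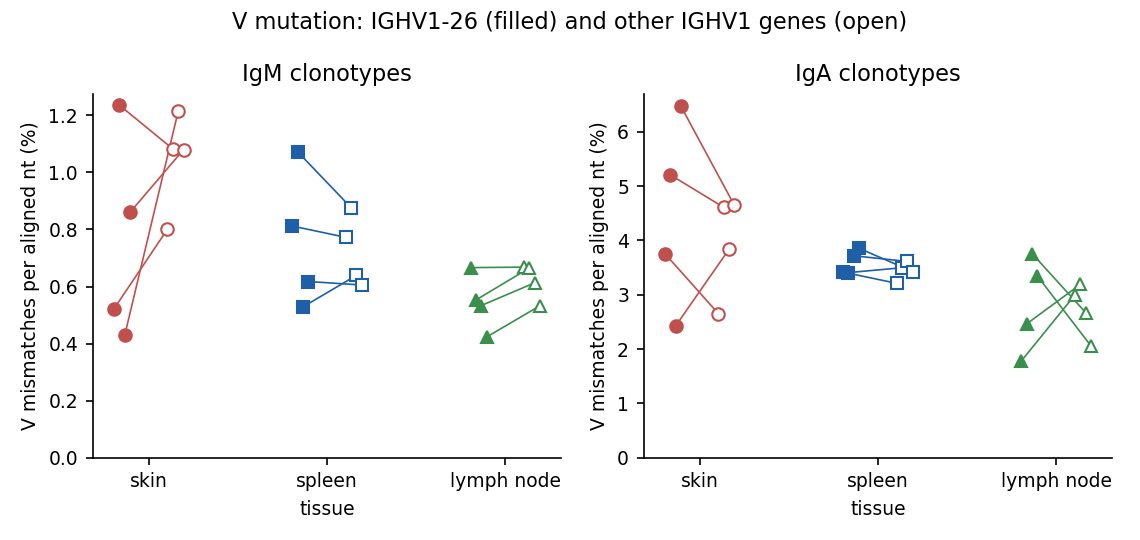
V mismatches per aligned nucleotide (%) of IGHV1-26 (filled) and of the other IGHV1 genes of the same sample (open), joined by lines, in IgM clonotypes (left) and IgA clonotypes (right) of the 4 replicates of each tissue. IGHV1-26 IgM values run from 0.423% to 1.24% and IgA values from 1.79% to 6.47%. Lines slope both ways in each set except lymph node IgM, where IGHV1-26 is the lower in all 4 replicates (differences of −0.112 to −0.00170 points).

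Taking the most abundant sequence of each clonotype, 72.9% ± 4.19 of spleen IgM clonotypes of IGHV1-26 matched the germline window without a mismatch, against 32.7% ± 9.31 of IgG2 and 21.2% ± 2.82 of IgA (SD, n = 4). In lymph node the shares were 77.3% ± 2.40 of IgM, 37.4% ± 8.28 of IgG2 and 25.4% ± 14.1 of IgA. In spleen IgA, CDR2 carried 4.78%, 5.01%, 4.81% and 4.91% mismatches per base in replicates 1 to 4, and framework 3 carried 3.14%, 2.80%, 3.20% and 3.30%. CDR2 was thus the denser in all 4 spleen samples, and also in all 4 lymph node samples of IgA, where the means were 3.56% ± 1.07 and 2.59% ± 0.84. In lymph node IgM the order was the reverse in all 4 samples, with means of 0.248% ± 0.038 in CDR2 and 0.544% ± 0.116 in framework 3. Without the mosaic sequences described with the recurrent set of positions, the framework 3 mean there was 0.310% ± 0.046 and that of CDR2 0.247% ± 0.040, with framework 3 still the higher in each sample. Spleen IgM had no common order: CDR2 carried 0.600, 1.61, 0.996 and 1.21 times the framework 3 value in replicates 1 to 4. Without the mosaic sequences this ratio was higher, at 1.48 ± 0.42 with a range of 0.942 to 1.96.

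Most V mismatches changed the amino acid. Of the possible single-base changes of the window, 76.4% in CDR2 and 78.7% in framework 3 would be replacements if each were equally frequent. In spleen IgA 80.5% ± 3.72 of CDR2 mismatches and 63.9% ± 2.80 of framework 3 mismatches were replacements, and in spleen IgM 73.8% ± 2.58 and 58.9% ± 1.01. In lymph node IgM the shares were 54.7% ± 3.74 and 57.1% ± 1.86. Over all isotypes the authors' deposited replacement mismatches made up 67.6%, 70.7%, 66.4% and 66.7% of V mismatches in spleen and 61.3%, 64.5%, 61.6% and 63.5% in lymph node. The groups did not overlap (difference 5.12 points, exact permutation p = 0.0286). With clonotypes of 2 or more copies and with copies as weights the difference was 4.45 and 8.90 points and missed the threshold (exact p = 0.0571 each). The call was also lost with the replicate number as a block, as 4 pairs cannot give an exact p below 0.125. By the most abundant sequence of each clonotype, replacements were 68.0% ± 2.68 of spleen IgA mismatches and 61.7% ± 2.14 of spleen IgM mismatches. In lymph node they were 66.9% ± 6.55 and 56.9% ± 1.80. The part of isotype make-up in the difference was not tested.

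The 5 positions most often mismatched among mutated spleen IgA clonotypes were 176, 170, 276, 250 and 244. Position 176, the middle base of the AGC serine codon 59, differed in 40.4%, 41.6%, 43.0% and 47.8% of them in replicates 1 to 4. Of all spleen IgA clonotypes 20.6% ± 8.82 carried G176C, which by itself encodes S59T, and 13.4% ± 7.86 carried G176A, by itself S59N (SD, n = 4). These shares count the base alone. With a second change in the codon the residue is another, as in the S59D windows above. Position 170, in the GGT glycine codon 57, differed in 22.3%, 34.6%, 36.0% and 27.7% of mutated clonotypes. G170A (by itself G57D) was the main change there in replicates 2, 3 and 4. In replicate 1 it was about as frequent as G170T (by itself G57V), at 7.57% and 7.80% of clonotypes. In spleen IgM, position 176 differed in 4.25% ± 2.67 of clonotypes and position 170 in 3.57% ± 3.42, and in lymph node IgM in 0.728% ± 0.655 and 0.192% ± 0.159. In skin, 10 of 28 IgA clonotypes differed at position 176 and 8 of 28 at position 170, the bases changed in the skin 2 and skin 4 windows above. Those at position 170 all came from skin 2 (5 of 10 clonotypes) and skin 4 (3 of 4). At position 176, skin 3 gave 1 of 12 and the rest came from skin 2 and skin 4. Clonotypes with similar junctions were not grouped into lineages, so the clonotypes counted here and in spleen may not be independent. The motif AGCT, which reads the same on both strands and is a known hotspot of the enzyme that starts hypermutation, occurs in the IGHV1-26 window at positions 175 to 178 and 245 to 248; 58 of 107 V gene windows (54.2%) hold it somewhere and 12 hold it at the first of these places.

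The other 3 positions were part of a recurrent set, though their changes also occurred outside the full set. G222A, G244C, C250A and A276G occurred together in 3.42% ± 0.95 of spleen IgM clonotypes, 7.70% ± 1.54 of spleen IgA and 3.83% ± 1.48 of lymph node IgM (SD, n = 4). Counted singly in spleen IgA, G244C was in 14.0% ± 3.02 of clonotypes, C250A in 16.4% ± 3.52 and A276G in 15.7% ± 3.71. In spleen IgM the full set of 4 was carried by 10.4% to 17.2% of all mutated clonotypes. These 4 bases are the germline bases of 23 of the 63 IGHV1 genes with a window and of no V gene outside IGHV1; they were the 4 positions most often mismatched in spleen IgM, singled out after their values were seen. Exact mosaics, sequences equal to the start of the germline window of 1 gene and the end of another, made up 3.43% ± 1.09 of IGHV1-26 IgM sequences and 2.22% ± 0.50 of IgA sequences in spleen; for the other IGHV1 genes the means were 4.40% and 3.15%. Among IgM sequences with 3 or more mismatches they were 30.5% ± 11.1 for spleen and 54.8% ± 6.45 for lymph node. Without them, 75.7% ± 4.38 of spleen IgM clonotypes were unmutated, and spleen IgM framework 3 carried 0.526% ± 0.197 mismatches per base in place of 0.704% ± 0.210.

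**Figure D5:**
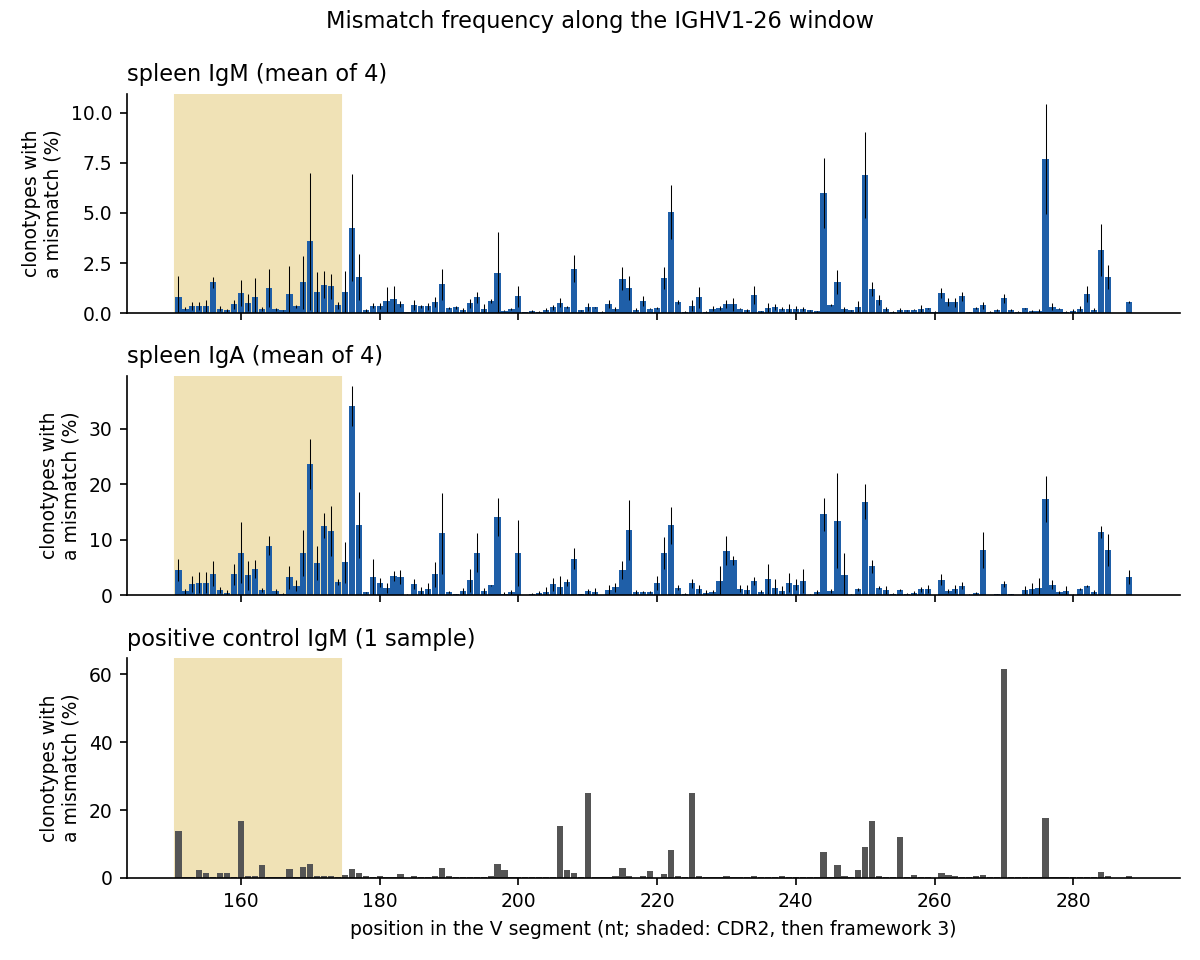
Clonotypes with a mismatch to the germline (%) at each position of the IGHV1-26 window, in spleen IgM and spleen IgA (mean of 4 replicates, line 1 SD to either side) and in IgM of the single positive control, on separate scales; CDR2 is shaded. Spleen IgA peaks at positions 176 and 170, spleen IgM at positions 276, 250, 244 and 222, and the control at position 270.

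The positive control differed from every tissue sample in its IGHV1-26 sequences. Only 0.492% of them had no V mismatch, against 34.8% to 44.9% for skin, 42.2% to 61.3% for spleen and 59.6% to 68.1% for lymph node. C270T was carried by 59.0% of control clonotypes, against 0.663% of lymph node, 0.763% of skin and 0.900% of spleen clonotypes. The 3 commonest control windows, shown because they carry the bases in which the control departs from the tissues, were the germline with C270T alone (4172 of 11176 sequences, 37.3%), a window with 5 mismatches (933, 8.35%) and another with 5 (797, 7.13%).
Control 1: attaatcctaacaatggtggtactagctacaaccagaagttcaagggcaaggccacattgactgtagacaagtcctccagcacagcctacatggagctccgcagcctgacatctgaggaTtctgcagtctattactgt
Control 2: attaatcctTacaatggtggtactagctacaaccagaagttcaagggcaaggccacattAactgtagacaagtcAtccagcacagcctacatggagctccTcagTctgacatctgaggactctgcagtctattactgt
Control 3: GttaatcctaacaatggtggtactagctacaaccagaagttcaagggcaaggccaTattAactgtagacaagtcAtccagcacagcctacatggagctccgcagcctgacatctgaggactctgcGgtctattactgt
None of the 3 is the germline window of another V gene in these files. The first occurred in 77 of 138310 tissue sequences and the others in 0. By the deposited mismatches the control averaged 2.13% mutation in IgM and 3.48% in IgA, but as the commonest control window is itself counted as mutated, these values are not comparable with those of the tissues. IGHJ3 paired with 23.8% of control clonotypes and IGHJ4 with 32.9%.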

How the data were processed

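Heavy-chain transcripts were reverse-transcribed with molecular identifiers and amplified with multiplexed primers by a commercial service and sequenced in paired reads, per the labels' protocols. The deposited tables hold distinct sequences with their assigned genes (V, J, constant), a whole-number count (called copies) and, as other measurements, V mismatches, silent and replacement mismatches and aligned V length. Whether identifiers or reads were counted is not stated. The build was mm10 per the submitters' processing notes; no aligner is named in the sources used here.

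Copies of the 2 technical libraries of a replicate were added. Clonotypes per V gene were tested with edgeR 4.0.16 (R 4.3.3; quasi-likelihood, TMM scaling, its filter for low counts, 12 tissue samples, p-values adjusted by Benjamini-Hochberg over all V genes of a comparison); isotypes were compared with the sample as block, and DESeq2 1.42.0 was an alternative. With 20 genes changed 4-fold in simulated counts of 91 V genes, 50%, 45% and 100% were recovered for skin against spleen, skin against lymph node and spleen against lymph node. False calls in these comparisons numbered 2, 0 and 0. Mutation, CDR3 length and J shares were compared by exact two-sided permutation over samples with at least 5 clonotypes, adjusted over comparisons, and against other IGHV1 genes by sign-flip over 8 samples (Python 3.11.15, numpy 2.4.6, pandas 2.3.3). P-values measure the spread between these samples. Germline windows were taken from unmutated sequences present at least 10 times. Mosaics needed 3 or more mismatches. Position results used the 149486 of 149631 IGHV1-26 sequences whose junction started at the usual place; 112 of 277995 deposited mismatches did not match the base read from the sequence. Named items were the 5 next most used and 5 most correlated V genes, the 3 closest by sequence, the 3 largest skin clonotypes found in both technical libraries, the largest of every other sample, 5 widespread CDR3 sequences and the 5 most mismatched positions of mutated IgA clonotypes. The gene, the lists and the tests were chosen with earlier results of these data known.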

Additional observations from a re-analysis of the deposited data

Results flagged for a closer look

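In 76 sets of 4 replicates, 5 had a replicate set apart from the other 3, its gap to the nearest exceeding Dixon's critical share of the whole range; chance alone sets 1 apart in about 1 of 20 such sets. In skin, replacements made up 79.7% of IGHV1-26 V mismatches in replicate 4 and 66.3% to 67.6% in the others. In spleen, IGHJ2 paired with 30.6% of IGHV1-26 clonotypes in replicate 1 and with 34.5% to 35.2% in the others. In lymph node, IGHV1-26 held 62.1% of IgG2 copies in replicate 1 and 0.523% to 5.69% in the others. A single clonotype held 2744 of the 3077 IGHV1-26 IgG2 copies of that replicate 1. The CDR3 difference to the other IGHV1 genes of the same spleen sample was −0.0746 residues in replicate 1 and −0.175 to −0.166 in the others. The IGHJ1 difference to the other IGHV1 genes of the same lymph node sample was −0.279 percentage points in replicate 4 and 0.514 to 0.617 in the others. In the positive control, which enters no test, C270T was carried by 59.0% of IGHV1-26 clonotypes, against 0.663% to 0.900% in the tissues.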

How the results depend on the processing

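Over 31 results and 407 alternative settings, 292 kept the direction and the side of the threshold, 50 lost a call, 8 gained one and 57 changed sign; the causes were not tested. Usage differences (log2) that changed sign were, for skin against spleen, −0.11 with no filter, −0.19 with clonotypes of 2 or more copies, −0.054 by CDR3 amino acids and −0.86 with technical library 1; for skin against lymph node, −0.20 with 2 or more copies and −0.68 and −0.010 with technical libraries 1 and 2; for spleen against lymph node, −0.0096 with 2 or more copies and −0.063 with technical library 2. DESeq2 gave 0.50 for skin against lymph node, a call. Against IgM, copies gave 1.54 for spleen IgG2 and 0.46 for lymph node IgA; 2 or more copies gave 0.033 and −0.42 for IgG2 in spleen and lymph node; DESeq2 gave −0.028 for spleen IgD and −0.045 for lymph node IgG2; no filter gave −0.023 and −0.27 for the same.

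IgM mutation differences (percentage points) changed sign for skin against spleen with copies (−0.474), 2 or more copies (−0.191) and no mosaics (−0.0615), an alternative chosen after seeing the data, for skin against lymph node with copies (−0.237), and for spleen against lymph node as the share with any mismatch (−0.214). For all isotypes, skin against spleen was −0.0630 with 2 or more copies. The calls were lost for skin and spleen against lymph node with copies (1.94 and 1.5), 2 or more copies (0.637 and 0.700), CDR3 amino acids (1.12 and 0.431) and any mismatch (18.0 and 3.85). CDR3 length, skin against lymph node, was −0.0286 with copies and −0.00756 with 2 or more. IGHJ1 was −2.39 with copies; by CDR3 amino acids IGHJ1, IGHJ3 and IGHJ4 passed at 1.21, 5.86 and −6.52. The replacement share was 8.90 with copies and 4.45 with 2 or more, both lost. Against other genes, IgM mutation was 0.119 with all V genes, 0.0735 with the 5 next and 0.0376 with 2 or more copies; CDR3 length −0.0752 with the 5 next and −0.340 with copies; IGHJ1 −0.796, −0.425 and −0.119, IGHJ2 0.975, −1.24 and −6.28, and IGHJ4 −0.634, 1.42 and −2.08 with all V genes, the 5 next and copies.

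Leaving out 1 replicate at a time gave usage ranges of −0.54 to 0.14 (skin against spleen), −0.072 to 0.27 (skin against lymph node), −0.24 to 0.11 and −0.13 to 0.17 (IgG2 in spleen and lymph node) and −0.039 to 0.16 (spleen IgD). Mutation ranged over −0.154 to 0.115 (IgM, skin against spleen), 0.411 to 1.07 (IgA), 0.726 to 1.29 and 0.378 to 0.622 (all, skin and spleen against lymph node), CDR3 length over −0.205 to 0.695 (skin against lymph node), and IGHJ1 to IGHJ4 over 0.594 to 1.34, −0.971 to 0.556, 4.97 to 7.22 and −7.80 to −6.12. Against other IGHV1 genes the ranges were −0.0293 to 0.327 (IgA mutation), −0.133 to −0.119 (CDR3 length), −1.60 to −1.28 (IGHJ2) and 0.940 to 1.22 (IGHJ4).

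Same-numbered samples correlated at −0.173 to 0.256, and the main tests did not take the number as a pairing. These correlations do not show that the samples were independent, and the labels do not settle it. IgA clonotypes were shared mostly within a number, 7 against 0 in other pairings for skin and spleen and 48 against 10 for spleen and lymph node. With the number as a replicate block the estimates stayed as they were, but 4 pairs cannot give an exact p below 0.125 and the calls were lost: mutation against lymph node 0.997 and 0.493 (skin, spleen), replacement share 5.12, and against other IGHV1 genes CDR3 length −0.126, IGHJ2 −1.5 and IGHJ4 1.06. The block left usage at 0.087, 0.12 and 0.035 in the tissue comparisons, with 1, 0 and 11 V genes called. Over all alternatives the count of V genes called ranged from 0 to 48, 0 to 37 and 0 to 38 there, and in the isotype comparisons 4 to 45, 0 to 23 and 0 to 14 in spleen and 1 to 12, 0 to 22 and 0 to 23 in lymph node for IgA, IgG2 and IgD. Skin depth, 18 to 40 IGHV1-26 clonotypes per sample, limits every skin value.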
